A study of Mus musculus with 16 samples.

Results

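The nuclear-encoded subunits of the respiratory chain were followed in mouse liver under 3 patterns of low oxygen. The set holds the protein-coding genes whose symbols, in an annotation of the GRCm38 genome, begin with Nduf followed by a, b, c, s or v and a digit, with Uqcr, with Cox4 to Cox8 or with Atp5, together with Sdha to Sdhd and Cyc1. The rule used names only and took 86 of the 55487 genes in the table: 37 of complex I, 4 of complex II, 9 of complex III, 18 of complex IV and 18 of complex V. Ndufa4 and its paralogue Ndufa4l2 stand with complex I by symbol, although the Ndufa4 protein is known as a subunit associated with complex IV. Atp5s, a coupling factor, is not a classical subunit of the enzyme. A filter on low counts left 80 of the 86 genes for testing, namely all of complexes I, II and III, 13 of complex IV and 17 of complex V. The 6 genes below the filter were Cox4i2, Cox6a2, Cox7b2, Cox8b, Cox8c and the second gene named Atp5o (ENSMUSG00000116933).

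The respiratory chain passes electrons from NADH at complex I and from succinate at complex II through ubiquinone to complex III, then through cytochrome c to complex IV, which reduces oxygen. Complexes I, III and IV pump protons across the inner mitochondrial membrane, and complex V, the ATP synthase, lets them flow back to make ATP. A small share of the subunits is encoded in mitochondrial DNA and the rest in the nucleus, so assembly needs products of both genomes. Liver is rich in mitochondria, which also host fatty acid oxidation, ketone body synthesis and the start of the urea cycle.

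Whole livers came from wild type C57BL/6J mice aged 12 weeks, with 4 libraries per group and 16 in all. The groups were room air, the control, and sustained, intermittent and overlap hypoxia, the last of which combined both patterns according to the series title. All groups share strain, genotype, age and tissue, and no transgene or drug is named. The sources used here give no oxygen levels or exposure times. In whole tissue, fewer cells of a type and less RNA per cell cannot be told apart.

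Library totals ran from 10940275 to 64789635 counts, with the smallest library in overlap hypoxia. Genes annotated as ribosomal RNA took 18.5% to 34.8% of the counts in intermittent hypoxia and 1.57% to 10.2% in room air. Their share was 1.55% to 2.77% in sustained hypoxia and 2.53% to 16.8% in overlap hypoxia. The labelled tissue is liver while the protocol text names retina; 7 hepatocyte markers summed to 57179 to 90396 CPM (counts scaled to a common library size) and 5 photoreceptor genes to 2.97 to 10.8 CPM, with Rcvrn at 0 in every group. Markers of Kupffer cells, the macrophages of the liver, summed to 96.8 to 178 CPM in room air libraries, 69.3 to 123 under sustained hypoxia, 44.6 to 76.6 under intermittent hypoxia and 43.9 to 49.0 under overlap hypoxia, with 10 of 10 markers detected. Muscle and brown fat use other isoforms of some subunits. The 7 muscle markers summed to at most 3.10 CPM in any library, with Myh7 at 0 in every group. The 6 fat cell markers reached 37.6 CPM in a sustained hypoxia library and at most 11.4 CPM in the other groups, with Ucp1 at 0 throughout.

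The subunits were abundant liver transcripts. In room air 66 of the 80 tested genes stood at 100 CPM or more, and the 86 genes together made up 1.61% to 2.17% of all counts. Levels of different genes were compared as CPM per kilobase of transcript, by the median length of a gene's annotated transcripts. On that scale the highest in room air were Ndufa4 at 1569 ± 126, Uqcrq, a small complex III subunit, at 1342 ± 123, Cox4i1 at 1314 ± 188 and Atp5e, the epsilon subunit of the ATP synthase, at 1197 ± 217 (SD, n = 4). The mean of Ndufa4 exceeded the next by more than either SD, and each of the other 3 differed from its neighbour by less.

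Close to every second subunit gene was lower in intermittent hypoxia than in room air. Of 80 tested, 39 fell and 1 rose against room air in edgeR's quasi-likelihood test at a Benjamini-Hochberg adjusted p under 0.05, and 40 did not pass. Over all 14553 genes tested 18.3% fell and 18.9% rose. The median log2 change of the subunits was −0.38 and that of all genes 0.03. All 4 complex II genes fell (median −0.61), with 5 of 9 in complex III (median −0.62), 10 of 17 in complex V (median −0.47), 16 of 37 in complex I (median −0.31) and 4 of 13 in complex IV (median −0.35). The summed level of the 86 genes was 19028 ± 1319 CPM in room air (SD, n = 4) and 13815 ± 1141 in intermittent hypoxia, and the 4 intermittent libraries, at 12242 to 14949 CPM, all lay below the room air range of 17131 to 20020 CPM. Single genes were apart in that way, with every intermittent library below every room air library, in 43 of the 80 subunits and in 18% of all genes. In the same libraries 7 of 10 Kupffer cell markers fell (median −1.14), 2 of 7 hepatocyte markers fell and 1 of 5 lymphocyte markers fell. Markers of stellate cells and fibroblasts rose in 3 of 9 genes (median 0.67), and those of sinusoidal endothelial cells rose in 3 of 9 and fell in 1 (median 0.20). The part of cell makeup in the subunit levels was not tested.

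**Figure D1:**
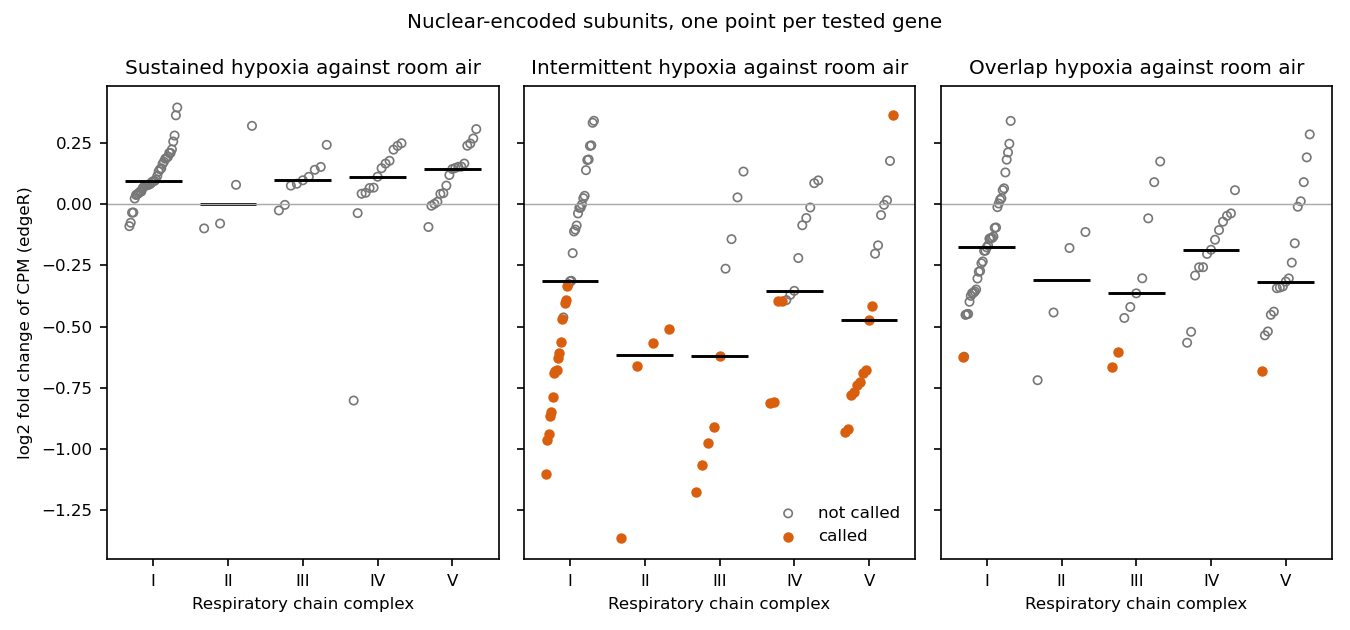
Each point is 1 tested subunit gene, placed by complex (horizontal axis) and by its log2 fold change of CPM against room air from edgeR (vertical axis), in sustained, intermittent and overlap hypoxia; filled points passed an adjusted p under 0.05 and bars mark the median of a complex. In intermittent hypoxia the medians lie between −0.62 and −0.31 and 40 points are filled, against 4 in overlap hypoxia.

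These counts moved with the correction applied for library composition. With offsets for transcript length and GC content 2754 of all 14532 genes fell and 2116 rose. Among the subunits 24 fell and 10 rose, and their median was −0.09. Of the 40 genes called without offsets, 23 were called with them. The 10 that rose included Ndufc1 (0.80), Ndufa5 (0.61), Uqcrb (0.55) and Cox7c (0.53), which had log2 changes of 0.34, 0.24, 0.13 and 0.10 without offsets and did not pass. With the ribosomal RNA share of each library as a covariate 5 of 80 subunits fell, beside 715 of all 14553 genes. The median of the subunits was −0.20. Those 5 were Sdha (−0.73), Sdhd (−1.17), Uqcrc2 (−0.83), Uqcrh (−0.99) and Atp5f1 (−0.79). The ribosomal share was at least 18.5% in all 4 intermittent libraries and at most 10.2% in room air, so this share and the exposure cannot be told apart.

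The promoters of 6 complex II, III and V genes are shown because they differ in the sites they hold for factors known to act on respiratory genes, and their transcripts carry the results that follow. Each is a stretch of 100 bases before the start of the gene in both RefSeq and GENCODE, from RefSeq promoters of GRCm38.p6, written 5′ to 3′ on the gene's strand, which is the minus strand in all 6. Capitals mark matches on either strand to the binding motif of NRF1 with its central position free, to CCGGAAGT (ETS factors such as GABPA) or to AAGGTCA (ERR and other nuclear receptors). The genes were picked after their values were seen. The stretches are chr13:74350281-74350380 for Sdha, chr9:50603850-50603949 for Sdhd, chr4:116075072-116075171 for Uqcrh, chr2:73911327-73911426 for Atp5g3, chr9:44920743-44920842 for Atp5l and chr11:96075671-96075770 for Atp5g1.
Sdha: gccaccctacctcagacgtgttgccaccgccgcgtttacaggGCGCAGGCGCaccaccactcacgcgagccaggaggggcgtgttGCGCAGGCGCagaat
Sdhd: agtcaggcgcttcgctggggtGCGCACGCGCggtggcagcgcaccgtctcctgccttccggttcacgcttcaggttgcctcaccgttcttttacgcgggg
Uqcrh: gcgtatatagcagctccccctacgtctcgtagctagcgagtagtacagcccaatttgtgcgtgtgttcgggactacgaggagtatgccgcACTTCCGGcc
Atp5g3: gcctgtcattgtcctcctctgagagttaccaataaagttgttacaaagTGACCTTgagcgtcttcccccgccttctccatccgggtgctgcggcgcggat
Atp5l: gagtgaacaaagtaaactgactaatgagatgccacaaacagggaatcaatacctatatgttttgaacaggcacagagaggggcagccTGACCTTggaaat
Atp5g1: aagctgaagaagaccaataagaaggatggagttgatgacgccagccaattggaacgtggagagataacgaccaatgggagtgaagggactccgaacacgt

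Sdha, the flavoprotein of complex II, held 2 NRF1 matches in this stretch, which began 98 and 55 bases before the RefSeq start, and Sdhd, a membrane anchor of the same complex, held 1 at 79 bases. Uqcrh, the hinge protein of complex III, held an ETS match 11 bases before the start. Atp5g3, a gene for the c ring of the ATP synthase, and Atp5l, its g subunit, held an ERR match 52 and 13 bases before the start. The stretch of Atp5g1, the only subunit gene that rose in intermittent hypoxia in the fit without offsets, held none of these letters, and neither did the stretches of Ndufv1, Ndufb8, Uqcr10 and Atp5b, which fell. The Atp5g1 stretch did hold ACGTG, the core of the hypoxia response element, which is not in capitals. So did the stretch of Sdha, which fell.

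The motifs were counted in 74 RefSeq windows of 69 members, from 250 bases before to 50 after the start, and in all 32851 windows of the table. The NRF1 motif with a free central position stood in 25.7% of subunit windows and 4.60% of all windows. Its strict palindromic form, which lies within it, stood in 6.76% and 0.971%. AAGATGGC (YY1) stood in 13.5% and 2.75%, AAGGTCA in 10.8% and 4.72%, CCGGAAGT in 6.76% and 3.89%, GGGCGG (SP1) in 39.2% and 35.7%, and ACGTG, the core of the hypoxia response element, in 25.7% and 19.6%, all on either strand. Of the 33 windows of subunits that fell in intermittent hypoxia 7 held AAGGTCA, and of the 38 windows of other tested subunits 1 did. The NRF1 motif stood in 9 of 33 and 9 of 38, and its strict form in 0 and 5. In the same order AAGATGGC stood in 6 and 4, CCGGAAGT in 3 and 2, GGGCGG in 11 and 17 and ACGTG in 9 and 9. These are descriptions of letters, with no test.

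Complex I takes electrons from NADH. Core subunits that fell in intermittent hypoxia included Ndufv1, which binds the flavin that accepts them, Ndufs1 (−0.68) and Ndufv2 (−0.61). Ndufv1 (ENSMUSG00000037916, chr19:4007384-4012806) stood at 159.6, 163, 169.7 and 215 CPM in the room air libraries, from lowest to highest, and at 77.5, 86.0, 90.7 and 115 CPM in intermittent hypoxia. The highest intermittent library lay well below the lowest in room air. The log2 change was −0.94 ± 0.15 (SE; edgeR adjusted p = 9.02e-05). The core subunits Ndufs3, Ndufs7 and Ndufs8 had log2 changes of 0.00, 0.24 and −0.04 and did not pass.

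Most of the remaining complex I genes code for accessory subunits, which surround the core. Ndufb8 (ENSMUSG00000025204, chr19:44548572-44555440), a membrane arm subunit often used as a marker of assembled complex I, stood at 212, 277, 288 and 326 CPM in room air and 108, 119.6, 126 and 160.0 CPM in intermittent hypoxia (log2 −1.10 ± 0.18, edgeR adjusted p = 0.000125). Its groups did not overlap. Ndufs4, whose loss causes a severe complex I deficiency in mice, ranged over 120.4 to 162 CPM in room air and 60.0 to 89.5 CPM in intermittent hypoxia (log2 −0.97, edgeR adjusted p = 0.000104). Accessory genes that fell also included Ndufb4 (−0.87), Ndufb9 (−0.85), Ndufa7 (−0.79), Ndufa4 (−0.69), Ndufs5 (−0.68), Ndufb6 (−0.63), Ndufb2 (−0.56), Ndufa9 (−0.40), Ndufs6 (−0.39) and Ndufb10 (−0.33). Accessory genes that did not pass ran from −0.46 for Ndufa2 to 0.34 for Ndufc1.

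Complex II, succinate dehydrogenase, also works in the citric acid cycle and is the only complex of the chain with no mitochondrially encoded subunit. Sdhd (ENSMUSG00000000171, chr9:50596357-50603812) had the largest fall of all members in intermittent hypoxia. Its libraries stood at 208, 285, 320.4 and 332 CPM in room air and at 63.6, 96.9, 136 and 149 CPM in intermittent hypoxia, so that every intermittent library was below every room air library (log2 −1.36 ± 0.22, edgeR adjusted p = 0.00013). Sdha stood at 179, 194, 204 and 217 CPM in room air and 98.9, 123, 129 and 150.4 CPM in intermittent hypoxia (log2 −0.66 ± 0.13, edgeR adjusted p = 0.000546). The groups were again apart. Sdhc, the other membrane anchor, fell by 0.57 and Sdhb, the iron-sulphur subunit, by 0.51 on the log2 scale.

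In complex III both core proteins, which form the matrix arm, were measured, and they differed. Uqcrc2 (ENSMUSG00000030884, chr7:120635176-120659524) stood at 277, 278, 341 and 347 CPM in room air and 140.3, 145, 162 and 185 CPM in intermittent hypoxia (log2 −0.97 ± 0.14, edgeR adjusted p = 5.06e-05), with no overlap. Uqcrc1 stood at 187, 190.1, 194 and 219 CPM and 192, 196, 197 and 219 CPM (log2 0.03 ± 0.11, adjusted p = 0.863), and its groups overlapped almost fully. Of the 2 electron transfer subunits encoded in the nucleus, cytochrome c1 fell and the Rieske protein did not pass. Cyc1 (ENSMUSG00000022551, chr15:76343523-76346260), the gene of the former, stood at 228, 266, 266 and 302 CPM in room air and 117, 139.8, 139.8 and 167 CPM in intermittent hypoxia (log2 −0.91 ± 0.14, edgeR adjusted p = 8.52e-05). Uqcrfs1 had a log2 change of −0.14. Among the small subunits Uqcrh ranged over 326 to 490.0 CPM in room air and 158 to 207 CPM in intermittent hypoxia (log2 −1.18, edgeR adjusted p = 5.43e-05), and Uqcr10 over 187 to 268 CPM and 105 to 133 CPM (log2 −1.06, adjusted p = 0.000225). Neither gene's groups overlapped. Uqcr11 fell by 0.62, while Uqcrq (−0.26) and Uqcrb (0.13) did not pass.

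Complex IV, cytochrome c oxidase, had the smallest share of falls. Cox4i1 (ENSMUSG00000031818, chr8:120668222-120674207), the widely expressed form of its largest nuclear subunit, stood at 798, 994, 1044 and 1132 CPM in room air and 504, 535, 584 and 643 CPM in intermittent hypoxia (log2 −0.81 ± 0.16, edgeR adjusted p = 0.000543). The intermittent libraries were all lower. Cox7a2l ranged over 85.9 to 136 CPM and 42.3 to 79.4 CPM (log2 −0.81, edgeR adjusted p = 0.004). Cox7a2 (−0.40) and Cox7b (−0.39) also fell. Cox5a, one of the first subunits to join during assembly, stood at 162, 164, 178 and 179 CPM in room air and 92.9, 134, 139 and 155 CPM in intermittent hypoxia. Its groups did not overlap, yet it narrowly missed the threshold (log2 −0.39 ± 0.15, edgeR adjusted p = 0.0509). The other 8 tested genes ran from −0.37 for Cox6b1 to 0.10 for Cox7c and did not pass.

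In complex V the catalytic F1 part fell in 4 of 5 genes. Atp5b (ENSMUSG00000025393, chr10:128083273-128090391), the catalytic beta subunit, stood at 807, 842, 924 and 1086 CPM in room air and 347, 446, 507 and 634 CPM in intermittent hypoxia (log2 −0.92 ± 0.17, edgeR adjusted p = 0.000298), with no overlap. Atp5e (−0.78), Atp5a1 (−0.69) and Atp5c1 (−0.68), for the epsilon, alpha and gamma subunits, fell as well, and Atp5d, for delta, had a log2 change of 0.02. In the stalk and membrane part Atp5f1, the b subunit, ranged over 318.7 to 411 CPM in room air and 136 to 238 CPM in intermittent hypoxia (log2 −0.93, edgeR adjusted p = 0.000116). Atp5l (−0.77), the Atp5o gene ENSMUSG00000022956 (−0.74), Atp5g3 (−0.73), Atp5h (−0.47) and Atp5j2 (−0.42) also fell. Atp5k, Atp5mpl, Atp5g2, Atp5j and Atp5s ran from −0.20 to 0.18 and did not pass.

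The rise was in Atp5g1 (ENSMUSG00000006057, chr11:96068852-96075670), which codes for the same mature c subunit as Atp5g3. It stood at 203, 215, 225 and 256 CPM in room air and 264, 294, 296 and 302 CPM in intermittent hypoxia, with no overlap (log2 0.37 ± 0.11, edgeR adjusted p = 0.0157). Without the third room air library the adjusted p was 0.0626, and it passed in the other 15 fits that leave out 1 library. Atp5g3 stood at 602, 645, 663 and 699 CPM in room air and 316.2, 383, 402 and 477 CPM in intermittent hypoxia (log2 −0.73 ± 0.14, edgeR adjusted p = 0.000553). The genes of the c ring therefore moved in opposite directions, and their ratio in CPM went from 2.92 ± 0.253 to 1.36 ± 0.213 (SD, n = 4).

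**Figure D2:**
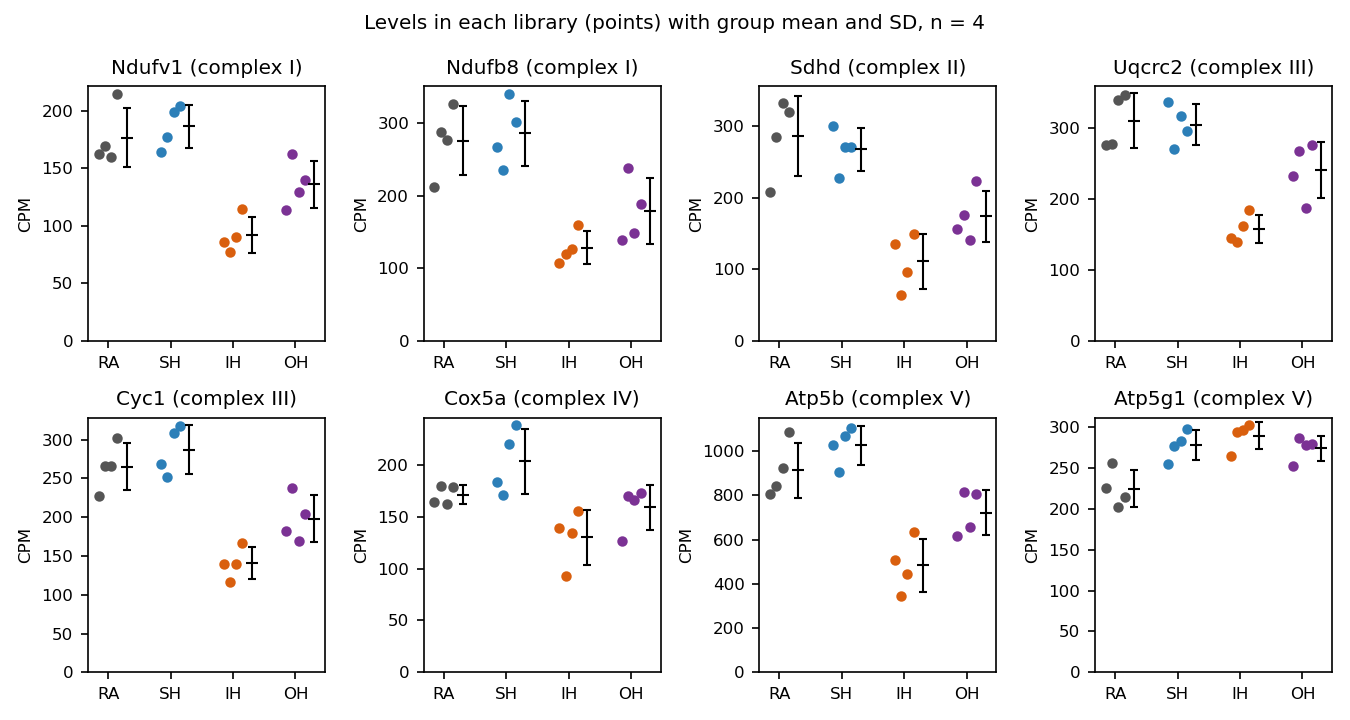
Points are the CPM of 8 subunit genes in each library of room air (RA), sustained (SH), intermittent (IH) and overlap hypoxia (OH), with the group mean and SD (n = 4) beside them, on axes that start at 0. In the 6 panels of Ndufv1, Ndufb8, Sdhd, Uqcrc2, Cyc1 and Atp5b the intermittent libraries lie below all room air libraries by a clear gap, in Cox5a by a small one, and in Atp5g1 they lie above.

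Some subunits of the same complex did not keep their proportions. Pairs were chosen after their values were seen, each a gene that fell in intermittent hypoxia over one that did not pass. They are given as ratios of CPM within a library, with no test, and the fall of these ratios follows from the choice. Uqcrc2 to Uqcrc1 averaged 1.59 ± 0.283 in room air, then 1.31 ± 0.158 in sustained hypoxia, 0.784 ± 0.0693 in intermittent hypoxia and 1.08 ± 0.131 in overlap hypoxia (SD, n = 4). Ndufv1 to Ndufs7 was 2.25, 2.09, 0.998 and 1.49 in the same order. The intermittent range lay below the room air range in each. Atp5b to Atp5d, both in the F1 part, was 4.13 in room air and 2.14 in intermittent hypoxia, and Cox4i1 to Cox6c was 2.65 and 1.44. These ranges were apart as well.

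Subunits that exist as tissue or oxygen dependent isoforms were present in the form known for liver. Levels are CPM per kilobase over the 16 libraries. Cox4i1 averaged 1065 and Cox4i2, the isoform known from lung and for its response to low oxygen, 0.114, with a highest library of 0.188 CPM. Cox6a1 averaged 683 and the heart and muscle form Cox6a2 0.0324. Cox7a2 averaged 356 and the muscle form Cox7a1 6.58. In each pair the liver form was the higher one in every library. Cox8a averaged 503, Cox8b 0.136, and Cox8c, a testis form, was at 0 in all 16 libraries. Cox6b1 averaged 708 and the testis form Cox6b2 0.362. Ndufa4 averaged 1292 and Ndufa4l2, known as a gene induced by hypoxia-inducible factors, 1.06. No exposure changed that order: Ndufa4l2 stayed at or below 1.49 CPM in every library. Among the c ring genes Atp5g3 averaged 772, Atp5g1 99.6 and Atp5g2 5.65. These rest on median annotated lengths of 718.5, 2675.5 and 586 bases in the same order. In CPM, without length, the ratio of Atp5g3 to Atp5g1 averaged between 1.36 and 2.92 in the groups.

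Of these isoform genes 4 are among the 6 not tested. Cox4i2, Cox6a2, Cox8b and Cox8c stayed at or below 0.367 CPM, and Cox7b2, another testis form, was at 0 throughout. Of the 50-base words in the transcripts of the untested Atp5o gene 89.8% also occur in another gene. Among tested members 17 share at least 20% of such words with another gene, and the estimate splits such reads between the genes. They include Atp5g2 (87.4%), Atp5l (84.8%), Atp5o (50.3%), Atp5f1 (38.7%), Cox5a (32.05%) and Uqcrc2 (24.8%), whose transcripts also overlap an antisense gene over 19.7% of their length. No source used here states the strand setting, and without strand the reads of such overlapping genes are not separable. Over the 63 tested members with less sharing 30 fell and 1 rose in intermittent hypoxia, with a median of −0.35.

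No subunit passed the threshold in sustained hypoxia against room air. Of 80 tested, 0 fell and 0 rose in edgeR, 3 had an unadjusted p under 0.05 (11.5% of all genes), and DESeq2 and limma-voom called 0 as well. Over all genes 0.0275% fell and 0.0206% rose, so few genes of any kind were called. The median change was 0.10 and 68 of 80 log2 changes were positive. The 3 were Atp5g1 (0.31, edgeR adjusted p = 0.3), Ndufa6 (0.36, adjusted p = 0.329) and Uqcrc1 (0.24, adjusted p = 0.4). Uqcrc1, at 223, 235, 237 and 239.6 CPM, lay above all room air libraries, as did Ndufa6 and 5 others, while over all genes 4.6% were apart in that direction. The largest negative value was −0.80 in Cox6b2, a gene at or below 0.335 CPM in every library. The median became 0.03 under length and GC offsets, and 0.05 once the ribosomal share entered as a covariate.

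**Figure D3:**
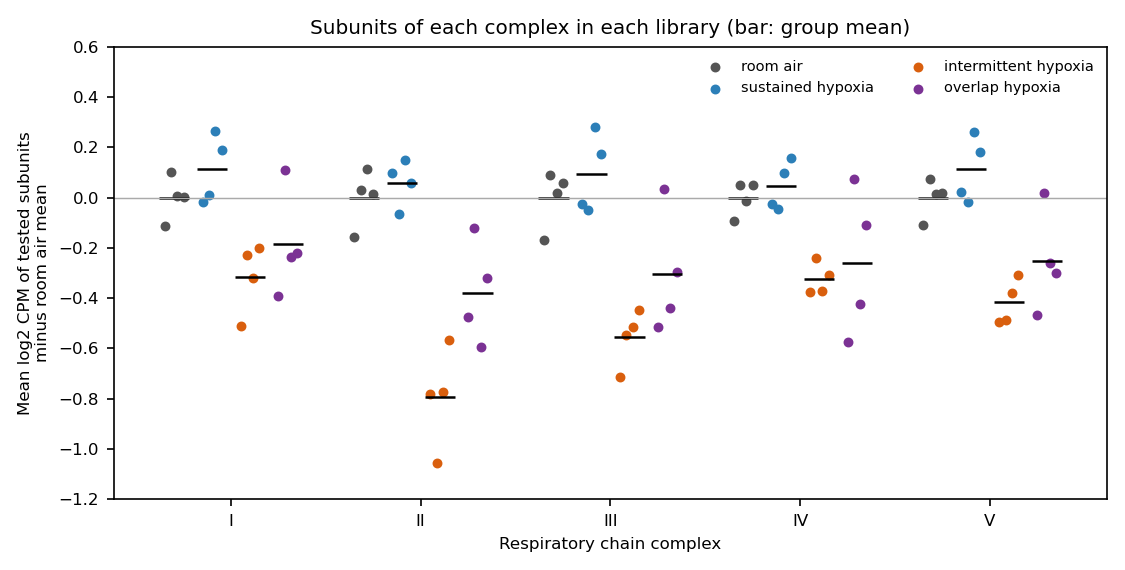
Each point is 1 library: the mean log2 CPM of the tested subunits of a complex (horizontal axis) minus the room air mean of the same genes (vertical axis), with bars at the group mean of 4 libraries. Intermittent libraries lie below 0 in every complex, at −1.06 to −0.57 in complex II, and 1 overlap library lies near or above 0 in complexes I, III, IV and V while the other 3 lie below.

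In overlap hypoxia 4 of 80 subunits were lower than in room air and 76 did not pass, where 2.89% of all genes fell and 3.41% rose. The median was −0.22 for subunits and 0.03 for all genes. In the same libraries 7 of 10 Kupffer cell markers fell (median −1.51) and 3 of 9 sinusoidal endothelial markers fell (median −0.58), while 0 of 7 hepatocyte markers passed. Whether these cell types bear on the subunit values was not tested. Atp5l stood at 177, 202, 239 and 241 CPM in room air and 109, 114, 141 and 171 CPM in overlap hypoxia (log2 −0.68 ± 0.17, edgeR adjusted p = 0.0228), with no overlap. Uqcrh stood at 223, 267, 304.7 and 325 CPM in overlap hypoxia, below all of its room air libraries (log2 −0.60, adjusted p = 0.0434). Uqcr10, at 122, 124, 146 and 216 CPM (log2 −0.67, edgeR adjusted p = 0.0387), and Ndufb8, at 139, 149, 188 and 238 CPM (log2 −0.63, adjusted p = 0.0434), overlapped room air with their highest library. Sdhd had the largest negative log2 change, −0.72 ± 0.22, and an adjusted p of 0.0533.

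The overlap libraries were uneven. The mean log2 level of the 80 subunits relative to room air was −0.46, 0.07, −0.31 and −0.23 in overlap replicates 1 to 4, beside ribosomal shares of 9.83%, 2.53%, 9.23% and 16.8%. Replicate 2 thus had the highest subunit level and the lowest ribosomal share of its group; the part of that share in the result was not tested. Without replicate 2 of overlap hypoxia 21 subunits fell against room air, beside 577 of all 14976 genes. The count of subunits was 8 without room air replicate 1, 7 without intermittent replicate 4, 2 without sustained replicate 1 or 4, and 0 without room air replicate 2, 3 or 4 or overlap replicate 1 or 3. DESeq2 called 14 subunits lower and 1 higher, beside 724 and 768 of all 13472 genes. With limma-voom 23 were lower, beside 753 of all 14553 genes. With offsets for length and GC content 2 fell, beside 322 of all 14532 genes. The ribosomal share as covariate left 0 lower, beside 151 of all 14553 genes.

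Subunit levels in overlap hypoxia lay mostly below those in sustained hypoxia and mostly above those in intermittent hypoxia. For overlap against sustained hypoxia edgeR called 0 of 80 in either direction, where 0.0275% of all genes fell and 0.137% rose. At an unadjusted p under 0.05 there were 42 (20.5% of all genes). DESeq2 called 16 subunits lower, beside 426 of all 12907 genes, and limma-voom 31, beside 666 of 14553. Without overlap replicate 2 edgeR called 29 lower, beside 704 of all 14976 genes. The median was −0.34, and 76 of 80 log2 changes were negative. The lowest adjusted p was 0.0608. For overlap against intermittent hypoxia 5 subunits were higher and 75 did not pass, with 3.2% of all genes higher and 2.95% lower, and the median was 0.15. These were Uqcrc2 (0.61 ± 0.14, edgeR adjusted p = 0.0223), Atp5b (0.58), Ndufv1 (0.56), Cyc1 (0.49) and Sdha (0.48), core, catalytic or electron transfer subunits of complexes I, II, III and V. Uqcrc2 stood at 188, 233, 268 and 276 CPM in overlap hypoxia, above all intermittent libraries and below all room air libraries. With only the compared groups fitted 0 subunits passed, as did 0 of all 13686 genes then tested. With the ribosomal share as a covariate 0 subunits passed, and of all 14553 genes 25 were higher and 12 lower. In this comparison 7 of 9 sinusoidal endothelial markers and 1 of 9 stellate markers were lower. The count of 5 was 15 without intermittent replicate 4, 8 without overlap replicate 3, 3 without room air replicate 2 or 3 or sustained replicate 1, 3 or 4, 2 without intermittent replicate 1, 1 without overlap replicate 2, and 0 without intermittent replicate 2 or 3 or overlap replicate 4. Of all genes 833 of 14789 were higher without intermittent replicate 4, and 7 of 15016 without overlap replicate 4.

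Sustained and intermittent hypoxia differed most. In sustained against intermittent hypoxia 47 of 80 subunits were higher, with 18.9% of all genes higher and 19.5% lower, and the median was 0.48. By complex these were 20 of 37, 4 of 4, 5 of 9, 7 of 13 and 11 of 17. Log2 differences above 1 included those of Uqcrh (1.17), Ndufb8 (1.15), Sdhd (1.26), Uqcr10 (1.15), Atp5b (1.09), Cyc1 (1.02) and Ndufv1 (1.02). Cox5a, which missed the threshold against room air, passed here, at 171, 183, 220.3 and 238 CPM in sustained and 92.9, 134, 139 and 155 CPM in intermittent hypoxia (log2 0.64 ± 0.15, edgeR adjusted p = 0.0029). With offsets for length and GC content 25 were higher and 6 lower, beside 2717 higher and 1984 lower of all 14532 genes. With the ribosomal share as covariate 0 subunits were higher. Few genes of any kind were called in that fit, 10 higher and 4 lower of 14553. Among cell type markers 3 of 10 for Kupffer cells, 2 of 5 erythroid, 1 of 5 lymphocyte and 1 of 2 fat cell genes were higher, 6 of 9 sinusoidal endothelial and 2 of 9 stellate genes were lower, and hepatocyte genes were higher in 2 and lower in 1 of 7. Shares of ribosomal RNA did not overlap between these groups, so share and exposure cannot be told apart.

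Ranking the 4 group means gave the same order in 40 of the 80 tested subunits: intermittent lowest, then overlap, room air and sustained. Intermittent hypoxia had the lowest mean in 54 and overlap hypoxia in 12, and sustained hypoxia had the highest in 60 and room air in 12. The overlap mean lay between intermittent and room air in 56. Of these neighbours, room air and sustained hypoxia differed past the threshold in 0 subunits, overlap hypoxia and room air in 4, and intermittent and overlap hypoxia in 5, in edgeR. The 3 comparisons against room air share its 4 libraries. The orders of group means were not counted over all genes, so whether they are particular to the subunits was not tested.

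The 13 subunits encoded in mitochondrial DNA did not follow the nuclear ones. In intermittent hypoxia 11 of the 13 rose and 2 did not pass (median 2.26). Cytochrome c oxidase subunit mt-Co1 had a log2 change of 2.48, mt-Cytb of complex III 2.06 and mt-Nd1 of complex I 2.08. Summed CPM of these 13 genes divided by that of the 86 nuclear genes ran from 0.423 to 1.32 in room air libraries, from 0.525 to 0.654 under sustained hypoxia, from 2.76 to 7.99 under intermittent hypoxia and from 1.02 to 4.13 under overlap hypoxia. All intermittent libraries exceeded all room air libraries, and 3 of 4 overlap libraries did. In overlap hypoxia 2 of 13 rose (median 1.03), and in sustained hypoxia the median was −0.40. In all 4 intermittent libraries the shares of ribosomal RNA and of mitochondrially encoded RNA both exceeded every room air library. In overlap replicate 4 the ribosomal share was 16.8% while the mitochondrially encoded share, 2.77%, was close to the highest in room air, 2.75%. Removing both kinds of RNA before scaling left 38 subunits lower in intermittent hypoxia.

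**Figure D4:**
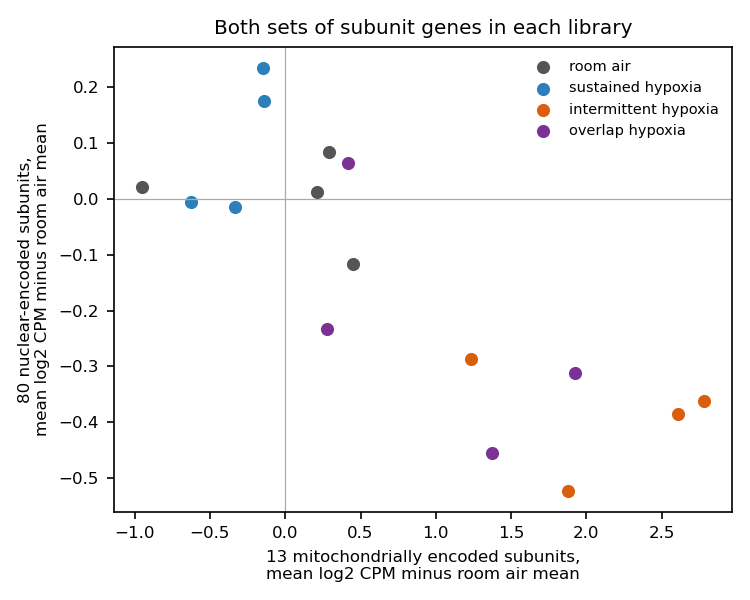
Each point is 1 library: the mean log2 CPM of the 13 mitochondrially encoded subunits (horizontal axis) and of the 80 tested nuclear-encoded subunits (vertical axis), each minus its room air mean. Intermittent libraries sit at 1.24 to 2.78 on the horizontal and −0.52 to −0.29 on the vertical axis, apart from room air on both.

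Other genes around the chain were taken from lists, to be read against the 18.3% of all genes that fell and the 18.9% that rose in intermittent hypoxia. Of 51 tested assembly factors 28 fell and 1 rose in intermittent hypoxia (median −0.51), among them Taco1, which aids translation of mt-Co1 (−1.08), Timmdc1 of complex I assembly (−0.97) and Sdhaf2, which helps attach flavin to Sdha (−0.90). Of 19 electron carrier and coenzyme Q genes 9 fell and 1 rose (median −0.47), with Etfdh, which feeds electrons from fatty acid oxidation into the chain, at −1.23, Coq3 at −1.12 and Coq2 at −1.10. Of 18 citric acid cycle genes 8 fell and 1 rose (median −0.31), with Pdhx at −1.10, Dld at −1.10 and Idh3b at −0.78. Falls therefore outnumbered rises in each of these lists. Of 21 cristae, import and carrier genes 12 fell and 1 rose (median −0.44), led by the import genes Timm23 (−0.95) and Tomm70a (−1.07) and by Immt of the cristae junctions (−0.71). Of 10 hypoxia-responsive genes, a list that also holds Cox4i1, 5 fell and 1 rose (median −0.39), with Vegfa, an angiogenic factor induced by low oxygen, at 1.60 and the mitophagy receptor Bnip3l at −0.91.

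The 24 tested regulators of mitochondrial gene expression were mixed, with 6 higher and 5 lower in intermittent hypoxia (median 0.02), which is near the 18.9% and 18.3% of all genes. Tefm, an elongation factor of mitochondrial transcription, had the lowest p (−1.64), followed by Tfam, which packages and transcribes mitochondrial DNA (−0.70), and the deacetylase Sirt3 (−0.83). Levels went from 15.4 to 4.88 CPM for Tefm and from 38.3 to 23.5 CPM for Tfam. Factors behind the NRF1, ETS, ERR and YY1 motifs had smaller values. Nrf1 was at −0.35 (edgeR adjusted p = 0.224), Gabpa at −0.19 (0.276), Esrra at −0.35 (0.132) and Yy1 at −0.24 (0.115). They were named for their motifs. In overlap hypoxia Tfam fell (−0.58, edgeR adjusted p = 0.0121), the only regulator of the list that passed there. Assembly factors had a median of −0.17 there.

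Subunit transcripts are short, and length went with the fold changes. Tested members had a median length of 746 bases, and 66.3% were under 1000 bases, against 2509 bases and 12.5% for all genes tested. In intermittent hypoxia Spearman's correlation between length and log2 change was 0.31 over 14540 genes and −0.16 over the 80 members, as a description across genes, which are not independent. Among genes under 1000 bases 28.6% fell and the median was −0.27. Between 500 and 1000 bases 14 of 40 members fell, a share close to the 31.2% of all 1448 genes of that length. Between 1000 and 2000 bases 16 of 21 members fell, with 28.6% of 3684 genes, and the medians were −0.61 and −0.20. Members of 1000 to 2000 bases thus lay further from all genes of their length than those of 500 to 1000 bases did. The shortest bin, under 500 bases, had 5 of 13 lower with 18.3% of all genes, and the bin from 2000 to 4000 bases 4 of 6 lower and 1 higher with 15.2% of all genes lower, both with few members.

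**Figure D5:**
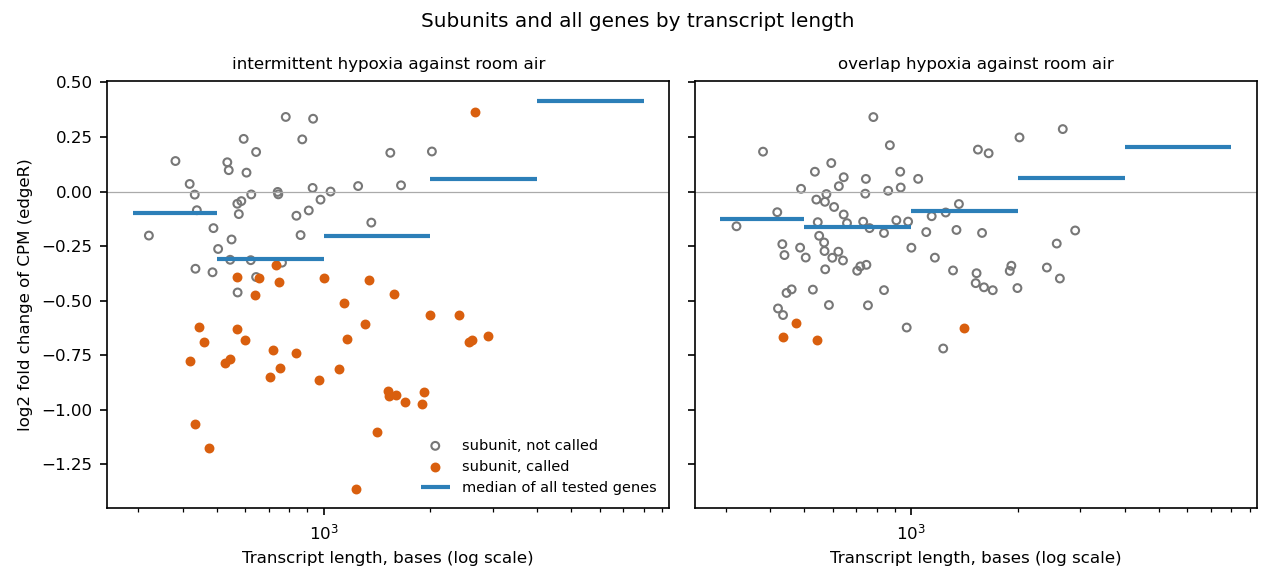
Points are the 80 tested subunits by transcript length in bases (horizontal, log scale) and log2 fold change of CPM from edgeR (vertical), for intermittent and overlap hypoxia against room air, filled where the adjusted p was under 0.05; lines are the medians of all tested genes in 5 length bins, the outer ones cut to the plotted range. In intermittent hypoxia the line rises from −0.31 at 500 to 1000 bases to 0.42 above 4000 bases.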

How the data were processed

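Mouse liver RNA was sequenced in 16 samples, 1 library per sample and 4 samples per group, and each column of the deposited table was matched to its sample by the sample description. The authors deposited expected counts per gene, in which reads that fit several genes are shared out by estimation; Bowtie 1.3.0, RSEM and the GRCm38 genome are named, per the submitters' processing notes. No source used here gives the annotation release, read length or strand setting. Libraries were made from total RNA with an Illumina TruSeq RNA kit, per the labels' protocols.

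Symbols, lengths, gene types and coordinates came from GENCODE M21 by Ensembl identifier and promoter sequences from RefSeq (GRCm38.p6). Expected counts were rounded, filtered with filterByExpr, which left 14553 genes, scaled by TMM and fitted with edgeR 4.0.16 (R 4.3.3; robust quasi-likelihood, 1 coefficient per group, all 16 libraries), with Benjamini-Hochberg adjustment over all genes and calls at 0.05. Values are CPM with TMM scaling as mean ± SD, and log2 changes carry the SE of the fit. Groups follow the treatment label. The labels do not call the samples separate animals, so p-values reflect library-to-library spread, which may be technical; no pair of libraries in a group agreed within sampling noise (chi-square per degree of freedom 61.1 to 477).

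Alternatives were DESeq2 1.42.0, limma-voom (limma 3.58.1) with quality weights, other scalings, no filter on low counts, a replicate block, the ribosomal share as covariate, offsets for length and GC content (mgcv 1.9.3), removal of ribosomal and mitochondrial genes, the compared groups alone, members with under 20% shared 50-base words, and each library left out. Named genes are 6 marker subunits, up to 2 largest falls and rises per complex among called members with a mean of at least 2 CPM in intermittent hypoxia, members called in sustained or overlap hypoxia, isoform pairs, and the 3 lowest p in each list. The members and lists were chosen with earlier results of these data known. Values of 1 member are not reported here.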

Additional observations from a re-analysis of the deposited data

Results flagged for a closer look

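In groups of 4 libraries, a value was marked where the gap between its highest or lowest library and the nearest other, divided by the group's range, exceeded Dixon's critical value. Among 138 group values of the named members and complexes 7 were marked, and chance marks about 1 in 20 groups.

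Cox5a stood at 127 CPM in overlap hypoxia replicate 1, below the 166 to 173 CPM of the other 3 libraries. Cox6b1 stood at 347 CPM in room air replicate 1, below the 383 to 389 CPM of the others. Both are subunits of complex IV. Intermittent hypoxia replicate 1 had the lowest summed level of complex III, 1775 CPM against 2076 to 2138, and of complex IV, 2661 CPM against 3164 to 3243. It also had the lowest mean over all 80 tested subunits, at −0.52 log2 relative to room air, where the other 3 lay between −0.38 and −0.29. Without that library 31 subunits fell in intermittent hypoxia.

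Atp5g2, of which 87.4% of words occur in another gene, stood at 3.98 CPM in intermittent hypoxia replicate 1 and 3.14 to 3.20 in the others. Cox6a2 stood at 0.0622 CPM in intermittent hypoxia replicate 2 and at 0 in the others. Cox8b stood at 0.367 CPM in sustained hypoxia replicate 2 and at or below 0.0466 in the others. These last genes, muscle forms of complex IV subunits, were below the filter on low counts.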

How the results depend on the processing

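The 39 subunits lower in intermittent hypoxia than in room air were 24 under length and GC offsets and 5 once the ribosomal share entered as a covariate, and 31 to 42 with 1 library left out. The single rise became 10 with length and GC offsets, 3 with upper-quartile scaling, 2 with only the compared groups fitted, and 0 without the low-count filter or with the ribosomal covariate, and 0 to 1 with 1 library left out. The 47 subunits higher in sustained than in intermittent hypoxia were 25 with length and GC offsets, where 6 were lower, and 0 with the ribosomal covariate. Over all genes that covariate left 10 higher and 4 lower in this comparison. The 4 subunits lower in overlap hypoxia than in room air were 14 with DESeq2, which called 1 higher, 23 with limma-voom, 2 with upper-quartile scaling, the compared groups or length and GC offsets, 0 with the ribosomal covariate and 0 to 21 with 1 library left out. Of all genes the 420 lower in overlap hypoxia than in room air became 724 with DESeq2 and 753 with limma-voom. For overlap against sustained hypoxia the count of 0 lower became 7 without the filter, 16 with DESeq2, 31 with limma-voom and 0 to 29 with 1 library left out. Of all genes the 4 lower there became 147 without the filter, 426 with DESeq2 and 666 with limma-voom. The 5 higher in overlap than in intermittent hypoxia were 12 with DESeq2, 8 without the filter, 3 with DESeq2 size factors, upper-quartile scaling or length and GC offsets, 2 with limma-voom, 0 with the compared groups or the ribosomal covariate, and 0 to 15 with 1 library left out. The causes of these shifts were not tested.

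The median change of subunits in intermittent hypoxia, −0.38, was −0.09 with length and GC offsets and −0.20 with the ribosomal covariate; for overlap against sustained hypoxia −0.34 became −0.09 with the offsets, and for sustained against intermittent hypoxia 0.48 became 0.16 with the offsets and 0.27 with the covariate. Upper-quartile scaling moved the median of all genes in intermittent hypoxia from 0.03 to 0.12. It called 3125 genes higher and 2162 lower where TMM gave 2744 and 2660. Length and GC offsets gave 2116 and 2754, and the ribosomal covariate gave 622 and 715. Of the 40 subunits called there 30 were called in all 16 fits that leave out 1 library; of the 4 called in overlap hypoxia against room air and the 5 against intermittent hypoxia, 0 were. Over the named subunits 1110 values kept direction and call, 150 kept direction only and 0 reversed. Only values called in the main fit were counted, and 16 of the 27 settings leave out 1 library, so reversals were unlikely from the start. Among called subunits that were not named, length and GC offsets turned Cox7b to 0.06 in intermittent hypoxia against room air. They turned Ndufa8 to −0.07 in sustained against intermittent hypoxia.

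Replicate numbers recur across groups, but same-numbered libraries correlated at only −0.10 to 0.18 in their deviations from the group means. Overlap replicates 1, 3 and 4 did correlate best with the same number in room air (r 0.16, 0.04 and 0.05). Against room air overlap replicate 2 did not, nor did any sustained replicate, while intermittent replicate 4 did (r 0.18). Overlap replicates 2, 3 and 4 correlated best with the same number in sustained hypoxia (r 0.17, 0.03 and 0.17). With intermittent hypoxia this held for overlap replicates 3 and 4 (r 0.06 and 0.07) and sustained replicates 2 and 3 (r 0.05 and 0.06). No label pairs the samples, and the numbers are not taken to pair them. With a replicate block the counts were 44 lower and 2 higher in intermittent hypoxia, 8 lower in overlap hypoxia, 2 lower in overlap against sustained and 11 higher in overlap against intermittent hypoxia. The 6 members below the low-count filter were not tested, and their values rest on few or no counts; the smallest library held 10940275 counts.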

Other observations

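Outside the set, the genes whose log2 CPM over the 16 libraries was most like the mean of the tested subunits were Dctpp1, a nucleotide pyrophosphatase (Pearson's r 0.982), Fmc1, a factor for assembly of the ATP synthase (0.981), Pfdn1, a chaperone subunit (0.978), Naa38, of an acetyltransferase complex (0.977), and the ribosomal protein gene Rpl24 (0.974). The 16 points share 4 groups, library depth and composition, and the transcripts of Dctpp1, Fmc1, Naa38 and Rpl24 are 479 to 677 bases long. Their log2 changes in intermittent hypoxia were −0.77, −0.80, −0.60, −0.74 and −0.41 in the same order.

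The name patterns also matched 12 genes that are not protein-coding and were left out. The pseudogene Ndufb4c stood at 52.9 to 191 CPM and the long non-coding gene Ndufb1-ps at 99.8 to 230 CPM, while the other 10 stayed at or below 0.524 CPM. Of the words of Ndufb4 37.0% occur in another gene, Ndufb4c sharing the most.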
